A study of Mus musculus with 32 samples.

Results

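Glutathione and the enzymes that spend it or spare it were followed in ribosome-bound RNA of mouse spinal astrocytes and in RNA of the whole lumbar cord. The 56 genes are the protein-coding glutathione transferases (Gsta, Gstm, Gstp, Gstt, Gstk, Gsto, Gstz and Mgst symbols), the numbered Gpx genes, the Prdx genes, and Gclc, Gclm, Gss, Gsr, Txn1, Txn2, Txnrd1, Txnrd2, Cat, Sod1, Sod2, Sod3, Nqo1, Hmox1, Nfe2l2 and Keap1. They were taken by symbol from a table of 55938 genes, with 5 pseudogenes of the same families left out, so the rule itself used no measured value, although the set was drawn up with earlier results of these data known. By role there are 22 soluble and 3 microsomal transferases, 8 glutathione peroxidases, 7 peroxiredoxins, 4 genes of glutathione synthesis and recycling, 4 of the thioredoxin system, 4 superoxide dismutases and catalase, and 4 of the NRF2 group.

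All mice carried Aldh1l1-CreER, a tamoxifen-activated Cre driven by the promoter of an astrocyte folate enzyme, and a Cre-dependent HA tag on the ribosomal protein Rpl22. Trap libraries hold RNA that came down with an anti-HA antibody, and Input libraries hold RNA of the lumbar homogenate with every cell type in it. Mice were uninjured or had been fractured 3, 5 or 7 weeks earlier, which models complex regional pain syndrome. For either sex, each state had 3 Trap libraries and 1 Input library, so that 24 Trap and 8 Input libraries were analysed. The tamoxifen course, the age of the mice, and whether animals were pooled are not given in the sources used here, so the p-values speak only of library-to-library spread, which may be technical.

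Glutathione is a tripeptide that GCLC and GCLM (the catalytic and modifier subunits of glutamate-cysteine ligase) and glutathione synthetase build, and that glutathione reductase returns to its reduced form with NADPH. Glutathione peroxidases, peroxiredoxins and catalase remove peroxides, superoxide dismutases supply hydrogen peroxide from superoxide, and transferases attach glutathione to reactive electrophiles. NRF2 (gene Nfe2l2), which KEAP1 holds at a low level in unstressed cells, drives many of these genes through antioxidant response elements. Astrocytes are known as the main store of glutathione in nervous tissue and as a source of its precursors for neurons.

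Library totals ran from 17124034 to 23189228 estimated counts, and levels are given in CPM, counts scaled to a common library size with TMM factors. By the library totals alone, 1 CPM would rest on 17.1 to 23.2 counts in a library. TMM scaling changes that number from library to library. The 56 genes took 0.679% to 0.942% of the counts of a Trap library and 0.287% to 0.355% of an Input library. All 10 astrocyte markers were higher in Trap, by log2 3.10 to 3.70, while all 10 neuronal, 8 oligodendrocyte, 8 microglial and 6 endothelial markers were lower and the 6 blood markers were higher, by log2 2.34 to 2.57. None of these lists was absent from Trap: summed neuronal markers stood at 296 to 937 CPM in Trap and 6993 to 8144 CPM in Input, and oligodendrocyte markers at 2264 to 5554 CPM in Trap and 15225 to 18186 CPM in Input. Male 7 weeks replicate 2 stood apart, with the highest share of counts on the 56 genes, and female 3 weeks replicate 3 had the lowest astrocyte marker sum (42913 CPM) and the highest neuronal sum. Of the other marker lists, 3 of 6 mural and fibroblast, 1 of 3 oligodendrocyte precursor and 1 of 3 ependymal markers were called higher and the remaining ones lower, and of 3 Schwann cell markers 1 was called lower.

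Among the 56 genes, 10 were too low to test in Trap against Input: Gpx2, Gpx5, Gpx6, Gsta1, Gsta2, Gstm3, Gstp3, Gstt4, Mgst2 and Prdx6b. Mgst2, with 78 counts over the 32 libraries, was the most abundant of them. Gpx5 and Prdx6b had 0 counts in every library. By the library totals alone, without TMM scaling, this allows up to 0.129 to 0.175 CPM per library at 3 counts, counting error only. The other 46 genes were tested both here and within Trap.

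Neighbouring transferase genes differed in how far Trap and Input levels lay apart. The Gstm genes lie side by side on chromosome 3 between 107895821 and 108044894 (GRCm38), in the order Gstm5, Gstm7, Gstm6, Gstm3, Gstm2, Gstm1, Gstm4. The following are RefSeq promoter windows of GRCm38.p6, 250 bases before to 50 after a gene start, printed for 3 of these neighbours with unlike Trap to Input differences (given below) and for Mgst1 and Gclm, which had a large and a small one. They are Gstm5 at chr3:107895604-107895903 (+), Gstm7 at chr3:107931565-107931864 (-), Gstm1 at chr3:108017769-108018068 (-), Mgst1 at chr6:138140277-138140576 (+) and Gclm at chr3:122245307-122245606 (+). Capitals mark a match on either strand to TGACNNNGC, the core letters of an antioxidant response element.
Gstm5: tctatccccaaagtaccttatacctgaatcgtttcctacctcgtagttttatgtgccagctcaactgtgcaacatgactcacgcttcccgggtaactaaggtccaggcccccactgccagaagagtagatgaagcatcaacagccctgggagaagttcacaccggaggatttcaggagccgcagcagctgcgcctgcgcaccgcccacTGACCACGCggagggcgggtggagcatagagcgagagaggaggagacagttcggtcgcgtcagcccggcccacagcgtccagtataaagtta
Gstm7: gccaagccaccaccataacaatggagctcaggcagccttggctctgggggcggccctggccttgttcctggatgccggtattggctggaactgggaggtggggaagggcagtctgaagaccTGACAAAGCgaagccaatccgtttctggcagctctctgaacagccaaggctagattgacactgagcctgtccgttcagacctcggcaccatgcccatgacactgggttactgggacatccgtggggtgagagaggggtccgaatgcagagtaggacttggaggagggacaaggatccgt
Gstm1: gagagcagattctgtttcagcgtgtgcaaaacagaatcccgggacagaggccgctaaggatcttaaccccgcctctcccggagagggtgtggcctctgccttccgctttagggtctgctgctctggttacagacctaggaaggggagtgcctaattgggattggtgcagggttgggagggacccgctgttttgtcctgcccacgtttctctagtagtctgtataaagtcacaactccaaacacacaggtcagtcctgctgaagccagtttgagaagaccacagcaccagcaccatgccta
Mgst1: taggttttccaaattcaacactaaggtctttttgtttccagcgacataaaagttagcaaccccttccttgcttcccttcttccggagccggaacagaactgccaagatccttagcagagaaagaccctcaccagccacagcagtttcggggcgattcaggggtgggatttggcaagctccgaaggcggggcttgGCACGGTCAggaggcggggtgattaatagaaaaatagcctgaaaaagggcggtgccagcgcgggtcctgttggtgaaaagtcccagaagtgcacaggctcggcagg
Gclm: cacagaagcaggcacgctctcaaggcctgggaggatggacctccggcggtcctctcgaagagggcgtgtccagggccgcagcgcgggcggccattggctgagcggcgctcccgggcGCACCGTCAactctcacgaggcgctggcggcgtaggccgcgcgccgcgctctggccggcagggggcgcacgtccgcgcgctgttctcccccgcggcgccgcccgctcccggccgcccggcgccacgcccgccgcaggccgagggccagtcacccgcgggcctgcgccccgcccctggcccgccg

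The match starts at base -42 from the gene start in Gstm5, -129 in Gstm7, -56 in Mgst1 and -134 in Gclm, and the Gstm1 window has none. Gstm7, Gstm1 and Mgst1 each have a second window in the table, not printed, and none of these holds a match. Of the 56 genes, 48 had a window in the table, 62 windows in all, and 9 windows (14.5%) of 9 genes held the letters, against 12.4% of all 32851 windows of that length. The 9 genes are Gclm, Gsta3, Gstm5, Gstm7, Mgst1, Nfe2l2, Prdx1, Sod1 and Txnrd1. Their median difference in level between Trap and Input was log2 1.16, against 1.21 for the 30 tested genes whose windows lacked the letters. A match is a description of these letters only.

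Trap libraries were set against Input to see which of these transcripts were enriched on astrocyte ribosomes. Over 2-fold higher in Trap were 13 of 17 soluble transferases, 5 of 6 peroxiredoxins, Gpx7, Gpx8, Cat and Sod3, while the 4 genes that make and recycle glutathione each differed by less than 2-fold. Of the 46 tested genes, 38 were called higher, 3 lower and 5 neither, at an adjusted p under 0.05 in edgeR's quasi-likelihood test, and 27 were over 2-fold higher and 1 over 2-fold lower. Calls were common in this comparison, at 88.1% of 15913 genes (44.4% higher and 43.7% lower), so a call alone says little. The median log2 difference of the 46 genes was 1.27, against 0.02 over all genes tested. Bulk RNA gives no level per cell. The level of a gene in astrocytes and the share of astrocyte RNA in a library cannot be told apart, here or in the later comparisons. Trap against Input also sets ribosome-bound RNA against total RNA, so cell type and ribosome binding cannot be told apart in it.

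**Figure D1:**
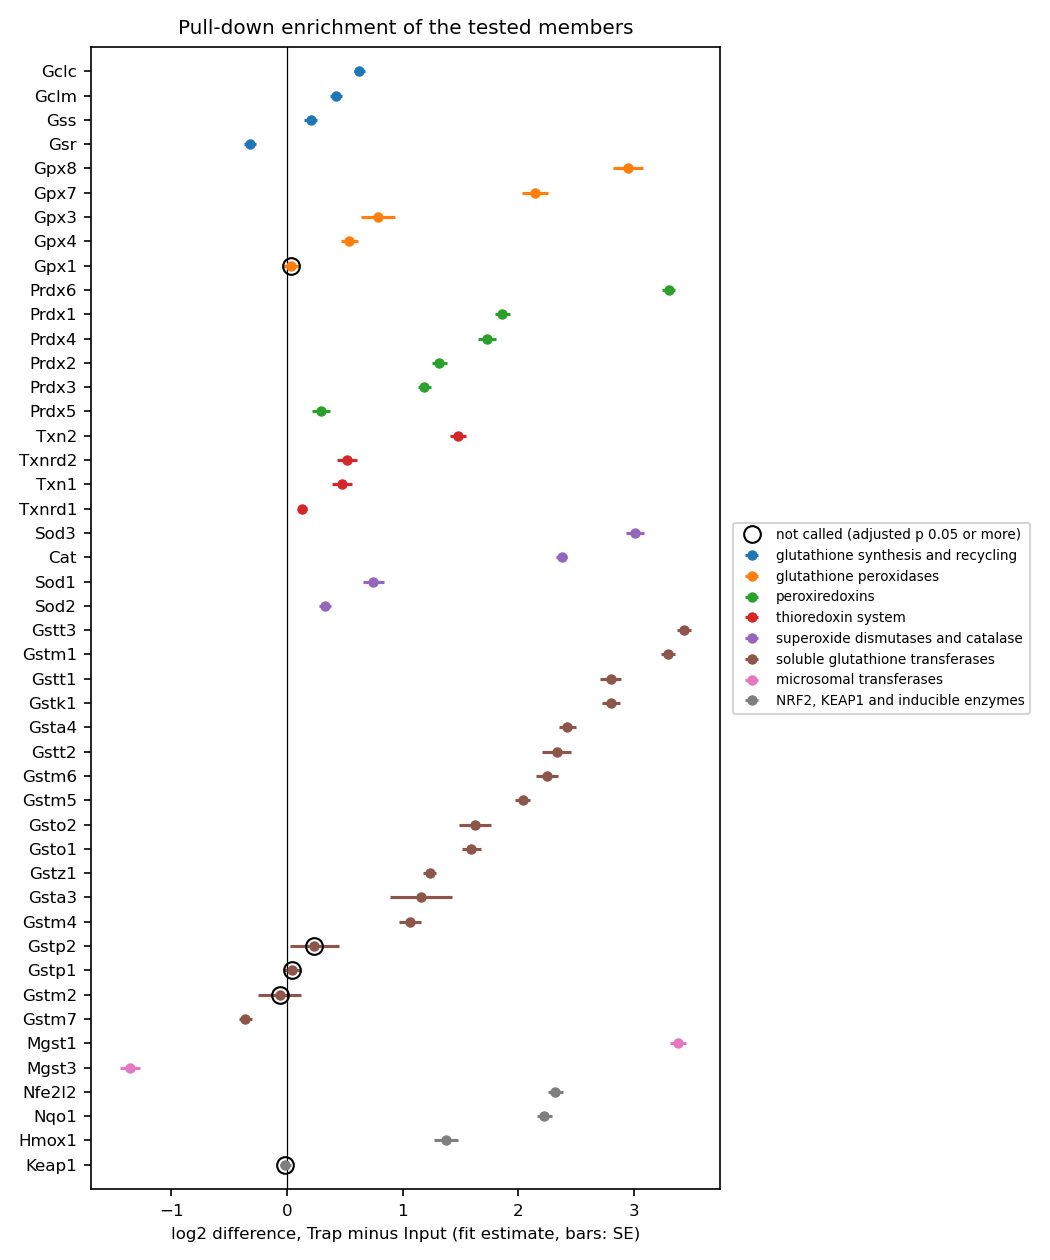
Log2 difference in level between Trap and Input (x axis, fit estimate with its standard error) for the 46 tested genes, grouped by role from glutathione synthesis at the top to the NRF2 group at the bottom, with rings on the 5 genes not called. Gstt3, Mgst1, Prdx6 and Gstm1 lie beyond log2 3, the synthesis genes between 0.20 and 0.63, and Mgst3 lies lowest at -1.36.

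Synthesis and recycling came first by role. Gclc, the catalytic subunit of glutamate-cysteine ligase, had 61.6, 73.4 and 85.6 CPM as the lowest, median and highest Trap library, against 44.2, 47.5 and 50.1 CPM in Input, and the groups did not overlap. Its difference was log2 0.63 ± 0.0472 (SE, edgeR adjusted p = 8.9e-15). Gclm, the modifier subunit, was higher by 0.42 ± 0.0495, with 96.6 ± 5.57 CPM in Trap and 72.3 ± 9.62 CPM in Input (SD, n = 24 and 8). Gss, the synthetase that adds glycine, was higher by 0.20 ± 0.0571, with Trap libraries at 22.6 to 34.1 CPM and overlapping Input libraries at 19.8 to 27.2 CPM. Gsr, the reductase, was lower in Trap, with a median of 19.7 CPM (16.6 to 24) in Trap, against 24.9 CPM (20.6 to 30.9) in Input (log2 -0.32 ± 0.0532, edgeR adjusted p = 1.2e-06). The Gss call was lost when DESeq2's size factors replaced TMM (0.10, adjusted p = 0.0906 in edgeR).

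Glutathione peroxidases differed widely among themselves. Gpx8, an enzyme of the endoplasmic reticulum, had 11.8, 15.5 and 21.3 CPM as the lowest, median and highest Trap library, against 1.29, 2.07 and 2.74 CPM in Input. That is a log2 difference of 2.95 ± 0.128, with no overlap. Gpx7, of the same compartment, was higher by 2.14 ± 0.110. Gpx4, which reduces lipid hydroperoxides in membranes, had 324 ± 40.3 CPM in Trap and 224 ± 32.8 CPM in Input (SD, n = 24 and 8), a difference of 0.54 ± 0.0730; a transcribed Gpx4 pseudogene held 7.14% as many counts as Gpx4 over all libraries, so the division of reads between them is uncertain. Gpx3, the secreted form, was higher by 0.79 ± 0.149. Gpx1, the cytosolic form, stood at 51.2 ± 7.16 CPM in Trap and 49.9 ± 6.36 CPM in Input (SD, n = 24 and 8), a difference of 0.03 ± 0.0777 that was not called and turned to -0.07 with DESeq2's size factors.

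All 6 tested peroxiredoxins were called higher in Trap. Prdx6 (chromosome 1, 161240112 to 161251219), which also acts on phospholipids, had 1632, 1819 and 2301 CPM as the lowest, median and highest Trap library, against 172, 182 and 219 CPM in Input. It was higher by log2 3.30 ± 0.0578 (edgeR adjusted p = 2.2e-33) and ranked 52 of all genes by CPM in Trap and 704 in Input. The cytosolic Prdx1 and Prdx2 were higher by 1.86 and 1.32, Prdx4 of the endoplasmic reticulum by 1.73, and the mitochondrial Prdx3 by 1.19. Prdx5, found in mitochondria and peroxisomes, was the least enriched at 0.30 ± 0.0754, with Trap libraries at 210 to 418 CPM and Input libraries at 172 to 248 CPM.

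In the thioredoxin system the mitochondrial Txn2 was higher by 1.48 ± 0.0672, with 146 to 243 CPM in Trap and 53.6 to 76.4 CPM in Input. The cytosolic Txn1 was higher by 0.48 and the mitochondrial reductase Txnrd2 by 0.52. Txnrd1, the cytosolic reductase, had 102 ± 5.84 CPM in Trap and 92.9 ± 4.62 CPM in Input (SD, n = 24 and 8). Its difference of 0.13 ± 0.0397 was called, but fell to 0.03 with DESeq2's size factors (edgeR adjusted p = 0.455).

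Of the enzymes that handle superoxide and hydrogen peroxide, Sod3, the extracellular dismutase, had 63.6, 84.4 and 119 CPM as the lowest, median and highest Trap library, against 8.81, 10.6 and 13.1 CPM in Input. It was higher by log2 3.01 ± 0.0791. Cat, the peroxisomal catalase, had 316 ± 17.1 CPM in Trap and 60.9 ± 2.74 CPM in Input (SD, n = 24 and 8), higher by 2.37 ± 0.0455. The cytosolic Sod1 and the mitochondrial Sod2 were also called higher, by 0.75 and 0.33, and their Trap and Input libraries did not overlap.

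Soluble transferases were the most varied group, with 13 of 17 tested genes higher, 1 lower and a median of log2 1.63. Gstt3, a theta-class enzyme, had 81.4, 105 and 134 CPM as the lowest, median and highest Trap library, against 7.83, 9.82 and 11.5 CPM in Input, and was higher by 3.43 ± 0.0596. Gstm1, a mu-class enzyme, had 1284, 1415 and 1998 CPM in Trap by the same measure, against 132, 147 and 181 CPM in Input. It was higher by 3.29 ± 0.0611 and, with Prdx6, made up 39.5% to 43.3% of the counts of the 56 genes in Trap and 12.9% to 14.2% in Input. Gsta4, which conjugates the lipid aldehyde 4-hydroxynonenal, was higher by 2.42 ± 0.0734, and Gstk1, of mitochondria and peroxisomes, by 2.80 ± 0.0769. Gstt1 and Gstt2 were higher by 2.80 and 2.33.

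Within the Gstm cluster, Gstm5 was higher by 2.04 ± 0.0677, Gstm6 by 2.25 ± 0.0930 and Gstm4 by 1.06 ± 0.0916. Gstm7, between Gstm5 and Gstm6, was lower by a log2 difference of -0.36 ± 0.0567, with 34.6, 40.4 and 54.8 CPM as the lowest, median and highest Trap library, against 46.6, 51.6 and 64.9 CPM in Input. Gstm2 was at 0.49 ± 0.19 CPM in Trap and 0.51 ± 0.13 CPM in Input (SD, n = 24 and 8) and was not called, and Gstm3 was too low to test. Reads of these near copies are divided by estimation, so small differences among them are uncertain. Gstp1, the pi-class enzyme, was not called, at 64.0 ± 8.93 CPM in Trap and 62.2 ± 7.79 CPM in Input (SD, n = 24 and 8), nor was its neighbour Gstp2.

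The microsomal transferases went opposite ways. Mgst1 had 121, 136 and 168 CPM as the lowest, median and highest Trap library, against 10.7, 13.8 and 14.3 CPM in Input, and was higher by log2 3.38 ± 0.0660. Mgst3, which conjugates glutathione to leukotriene A4 and reduces lipid peroxides, had 14.6, 19.9 and 33.3 CPM in Trap, against 44.4, 51.5 and 65.9 CPM in Input (log2 -1.36 ± 0.0853, edgeR adjusted p = 7.6e-17). Neither gene's Trap and Input libraries overlapped.

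In the NRF2 group, Nfe2l2 had 61.6, 80.6 and 91.5 CPM as the lowest, median and highest Trap library, against 14.0, 16.0 and 18.4 CPM in Input, and was higher by log2 2.32 ± 0.0662. Its targets Nqo1, a quinone reductase, and Hmox1, which degrades haem, were higher by 2.22 ± 0.0632 and 1.38 ± 0.102. Keap1, the adaptor that marks NRF2 for degradation, stood at 60.5 ± 3.09 CPM in Trap and 61.3 ± 7.28 CPM in Input (SD, n = 24 and 8). Its difference of -0.02 ± 0.0472 was not called, but reached -0.12 and was called lower with DESeq2's size factors (edgeR adjusted p = 0.0225). That scaling moved the median of all genes by -0.10.

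**Figure D2:**
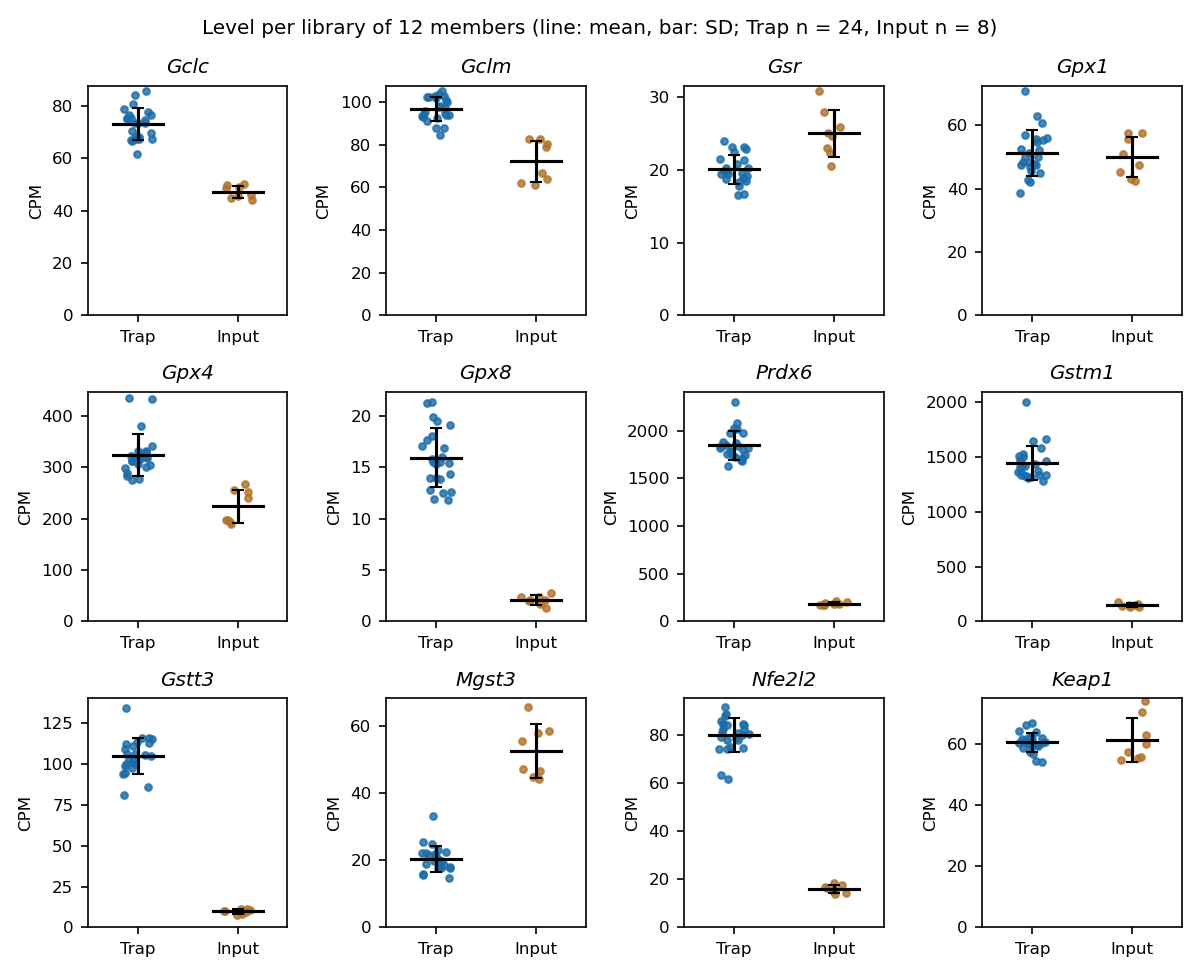
CPM in each library (y axis, from 0) of 12 genes in Trap (left, 24 points) and Input (right, 8 points), with the mean as a line and the SD as a bar. Prdx6, Gstm1, Gstt3, Gpx8 and Nfe2l2 are separated without overlap, Mgst3 is separated the other way, and Gpx1 and Keap1 share a range.

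Levels can be compared between genes per kilobase of transcript. In Trap, Gstm1 led at 1366 ± 149 CPM per kb, followed by Prdx6 at 1105 ± 91.1, Gstm5 at 559 ± 64.3, Sod1 at 380 ± 76.2, Gpx4 at 338 ± 42.1, Prdx5 at 333 ± 54.3 and Gsta4 at 327 ± 44.0 (SD, n = 24 each). From Sod1 to Gsta4 the neighbours differed by less than their spread. Input had another order, with Prdx5 at 273 ± 41.5, Gpx4 at 234 ± 34.2 and Sod1 at 227 ± 30.5 ahead of Gstm1 at 140 ± 14.8 CPM per kb (SD, n = 8 each). Lengths are medians over the annotated coding transcripts, so an unlike choice of isoform would shift a gene's place.

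**Figure D3:**
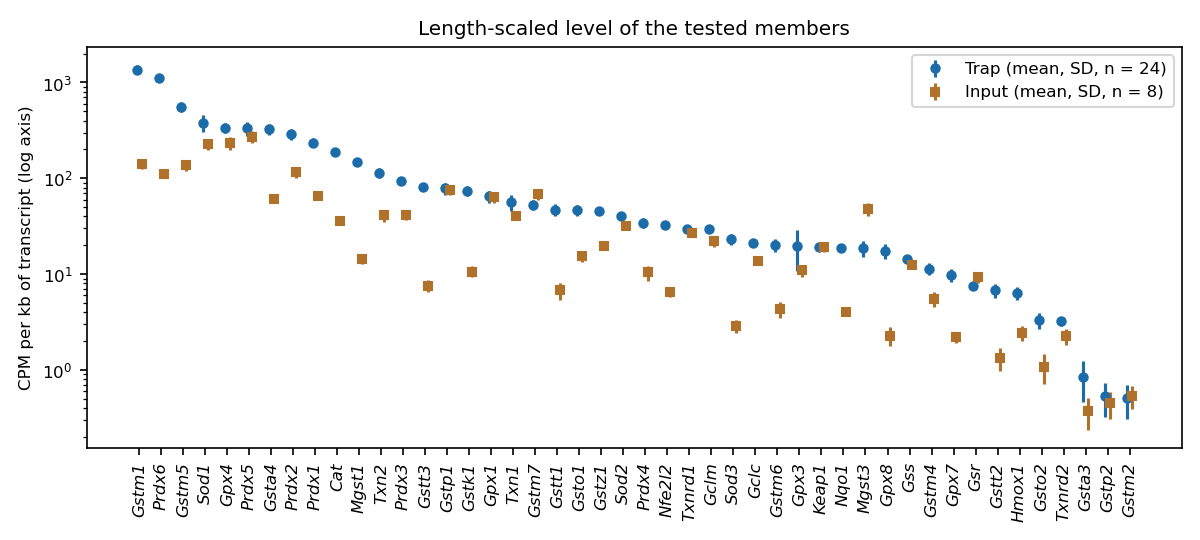
CPM per kb of transcript (y axis, log scale; mean and SD) of the 46 tested genes in Trap (circles) and Input (squares), ordered by the Trap level. Gstm1 and Prdx6 lead in Trap at 1366 and 1105 CPM per kb and lie near 140 and 112 in Input, while the Trap and Input points of Prdx5, Gpx4 and Sod1 lie nearer each other.

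Other genes of the pathway, 84 in number, were listed apart from the 56 genes. Of 81 tested rows (Nnt has a pair of rows), 54 were higher in Trap, 20 lower and 7 not called, with a median of log2 0.63. Over all genes tested, 44.4% were called higher and 43.7% lower, with a median of 0.02. The cystine and cysteine supply was at both ends. Slc7a11, the cystine importer, was higher by 3.07 ± 0.139 (65.4 ± 13.9 CPM in Trap and 7.93 ± 2.87 CPM in Input; SD, n = 24 and 8), its partner chain Slc3a2 by 2.79, and Cbs and Cth, which make cysteine from homocysteine, by 3.32 and 3.40. Slc1a1, a carrier of glutamate and cysteine in neurons, was lower, at 3.19 ± 0.987 CPM in Trap and 65.6 ± 1.98 CPM in Input (SD, n = 24 and 8; log2 -4.36 ± 0.0932). Chac1, which degrades glutathione, was lower (-3.10) and its relative Chac2 higher (1.55).

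Of the NADPH suppliers, 7 of 8 rows were called higher, against 44.4% of all genes. Among them were Idh2 at 2.90, Me1 at 2.08, Idh1 at 2.04 and G6pdx at 1.36. Of the methionine sulfoxide reductases, Msrb2 was higher by 1.56 while Msra was lower (-0.50). Srxn1, which restores overoxidised peroxiredoxins, was lower, at 50.4 ± 4.73 CPM in Trap and 132 ± 16.5 CPM in Input (SD, n = 24 and 8; log2 -1.39 ± 0.0552), opposite in direction to the 6 peroxiredoxins. Among NRF2 targets or partners, 11 of 21 were called higher and 7 lower, against 44.4% and 43.7% of all genes, so these counts say little about the list. The ferritin chains Fth1 and Ftl1 (-3.49 and -1.61), which store iron, and the NRF2 partner Mafg (-1.14) were lower, while Akr1b8 and Cbr3, which reduce carbonyls, were higher by 2.93 and 2.40. Aldh2, which oxidises aldehydes, was higher by 3.12. Aldh1l1, the folate enzyme gene whose promoter drives the Cre and which is among the astrocyte markers, was higher by 3.70.

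The study's main question was how the astrocyte translatome changes after fracture. No member passed the test of the main fit at 3, 5 or 7 weeks, and for the well-measured genes the intervals were narrow. In edgeR's quasi-likelihood test 0 of 46 genes were called at 3 weeks (0.111% of 15380 genes were), 0 at 5 weeks (0% of all genes) and 0 at 7 weeks (0% of all genes). At an unadjusted p under 0.05 there were 3, 0 and 1 of 46 genes (6.52%, 0% and 2.17%), against 8.64%, 2.76% and 2.85% of all genes. DESeq2 called 2, 0 and 0 of the 46 genes, and its count over all genes at 3 weeks is given with the alternatives below. The median log2 difference of the 46 genes was 0.03, -0.01 and 0.06 at 3, 5 and 7 weeks, against 0.0032, -0.0018 and 0.0043 over all genes. Without both libraries that stood apart, edgeR again called 0 genes at each time. With the replicate number as a block, edgeR called Gpx3 at 3 weeks, as given below. All 3 comparisons share the 6 uninjured libraries.

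**Figure D4:**
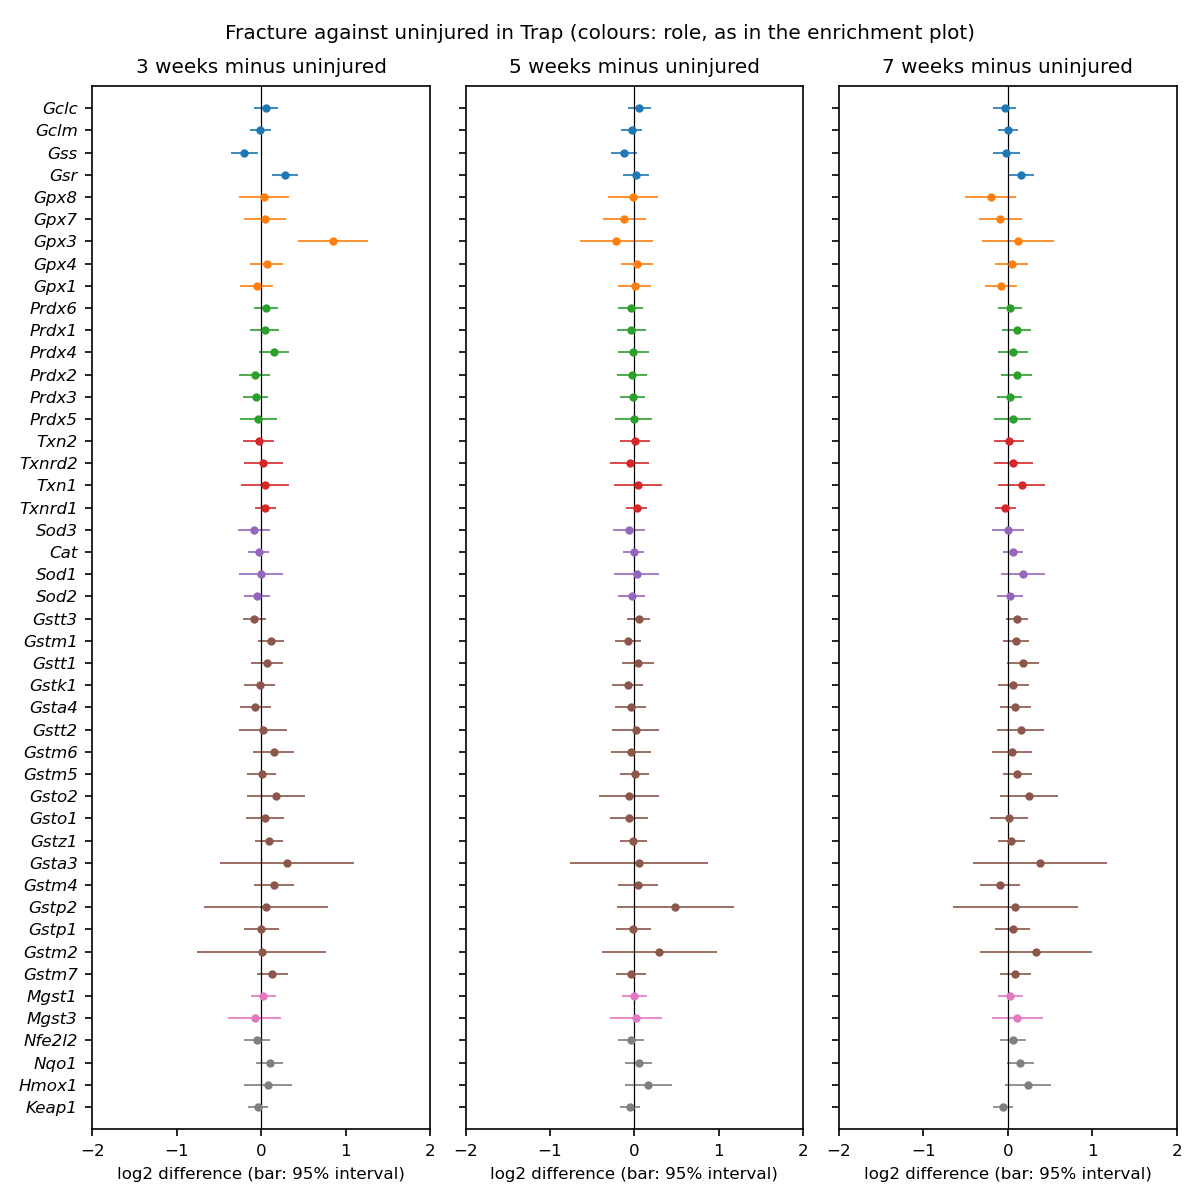
Log2 difference in Trap level (x axis, with 95% interval) of 3, 5 and 7 weeks after fracture from uninjured for the 46 tested genes, in the order of the enrichment plot. Gpx3 and Gsr at 3 weeks lie at 0.85 and 0.28 with intervals above 0, that of Gpx3 from 0.44 to 1.27, and the intervals of most genes span 0 at all times.

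Prdx6, with the highest CPM of the 56 genes in Trap, had medians of 1799, 1875, 1753 and 1826 CPM in uninjured Trap libraries and at 3, 5 and 7 weeks, and its log2 differences at the 3 times were 0.06 (95% interval -0.09 to 0.20), -0.04 (-0.19 to 0.10) and 0.03 (-0.12 to 0.17). Nfe2l2 had medians of 79.7, 78.4, 81.2 and 83.4 CPM in that order, and differences of -0.05 (-0.20 to 0.11), -0.04 (-0.20 to 0.11) and 0.06 (-0.10 to 0.21). Gclc had medians of 71.9, 75.5, 74.4 and 71.1 CPM. Cat, Txnrd1 and Keap1 likewise lay within ±0.07 of 0 at each time, with intervals no wider than -0.18 to 0.18. Sod1 and Txn1 were less well measured, with intervals of -0.26 to 0.26 and -0.24 to 0.33 at 3 weeks. Hmox1 was 0.08, 0.16 and 0.24 above uninjured at 3, 5 and 7 weeks and Nqo1 0.10, 0.05 and 0.15, none of them called. Gpx1, Gpx4, Gstm1, Mgst1 and Sod2 lay between log2 -0.08 and 0.11 at each time, and none was called. These values average the sexes. At 5 weeks Gpx1 had 55.9 to 70.8 CPM in females, against 51.1 to 55.7 CPM in uninjured ones. In males it had 38.5 to 49.9 CPM, against 46.8 to 54.7 CPM in uninjured ones (n = 3 each). That split was not tested.

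At 3 weeks Gpx3 had the smallest p among the 56 genes. Gpx3 (chromosome 11, 54902453 to 54910377) encodes the secreted peroxidase of extracellular fluid. Its female 3 week libraries had 42.0, 84.3 and 44.1 CPM, against 41.6, 28.1 and 18.4 CPM in uninjured females. Its male 3 week libraries had 41.2, 52.7 and 25.9 CPM, against 26.9, 23.1 and 21.4 CPM in uninjured males. Female 3 weeks replicate 2 was the highest, all 3 female 3 week libraries lay above those of uninjured females, the nearest by under 1 CPM, and male 3 weeks replicate 3 was within the uninjured male range. The means were 48.4 ± 19.6 CPM at 3 weeks and 26.6 ± 8.18 CPM in uninjured mice (SD, n = 6 each), a log2 difference of 0.85 ± 0.200 (95% interval 0.44 to 1.27) that was not called (edgeR adjusted p = 0.0950).

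This call depended on the method. DESeq2 called Gpx3 (adjusted p = 0.00259), as did edgeR without male 3 weeks replicate 3 (0.98, adjusted p = 0.0370). It was also called by edgeR with the replicate number as a block (0.84, adjusted p = 0.0193) and with that block within each sex (0.85, adjusted p = 0.0323). What the numbers mark is not given, and the main fits leave them out. Over all alternatives the log2 difference ran from 0.66 to 1.02, with adjusted p from 0.00259 to 0.278 in edgeR or DESeq2; the lowest was without female 3 weeks replicate 2. At 5 and 7 weeks the Gpx3 mean was 22.7 ± 2.59 and 28.8 ± 4.36 CPM (SD, n = 6 each), or -0.21 and 0.12 from uninjured on the log2 scale. In Input at 3 weeks it had 17.3 CPM in the female and 23.3 CPM in the male library, against 15.6 and 16.9 CPM in uninjured ones (log2 0.30 ± 0.107, edgeR adjusted p = 0.205). Summed microglial markers stood at 52.1 to 66.6 CPM at 3 weeks and 54.0 to 68.4 CPM in uninjured Trap libraries, endothelial markers at 4.06 to 9.82 and 4.92 to 7.71 CPM, and blood markers, nearly all of it globin, at 357 to 1770 and 836 to 2452 CPM.

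S100a8 and S100a9, calcium-binding proteins abundant in neutrophils, are in the blood list and did not follow its sum; they were singled out after their values were seen. S100a8 had 2.90, 11.6 and 1.30 CPM in female and 0.73, 0.88 and 0.14 CPM in male 3 week libraries, against 0.10, 1.24 and 0.55 CPM in uninjured females and 0.58, 0.63 and 0.26 CPM in uninjured males. All 3 female 3 week libraries were above every uninjured library for S100a8, and the highest, replicate 2, was also the highest for Gpx3, while male 3 weeks replicate 3 was the lowest at 3 weeks for both genes. S100a9 averaged 3.01 ± 3.73 CPM at 3 weeks and 0.50 ± 0.45 CPM in uninjured mice (SD, n = 6 each), and female 3 weeks replicate 2 was again the highest at 10.5 CPM. The differences were log2 1.64 ± 0.700 for S100a8 and 2.12 ± 0.639 for S100a9 (edgeR adjusted p = 0.491 and 0.218). None of the microglial, endothelial and blood markers was called at 3 weeks, 1 of 10 astrocyte markers was (Gja1, a gap junction connexin, at log2 -0.33, edgeR adjusted p = 0.0267; named after its value was seen), and the part of any of them in the Gpx3 values was not tested.

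Gsr (chromosome 8, 33652523 to 33698163) had 20.8, 22.7 and 24 CPM as the lowest, median and highest Trap library at 3 weeks, against 16.6, 18.9 and 20.3 CPM in uninjured mice, and the groups did not overlap. The difference of 0.28 ± 0.0732 was not called in edgeR (adjusted p = 0.120) and was called by DESeq2 (adjusted p = 0.0248). It was 0.02 at 5 weeks and 0.16 at 7 weeks, when it had the smallest p of the 46 genes (adjusted p = 1.00 in edgeR). Gss lay the other way at 3 weeks, with means of 24.5 ± 1.29 CPM at 3 weeks and 28.2 ± 2.48 CPM in uninjured mice (SD, n = 6 each; -0.20 ± 0.0765, edgeR adjusted p = 0.412), and overlapped. Gclc and Gclm, the step before, were at 0.06 and -0.01. Next by p at 3 weeks came Prdx4, a peroxiredoxin of the endoplasmic reticulum, at 0.15 ± 0.0880, and Gstm7 at 0.13 ± 0.0874, neither called.

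**Figure D5:**
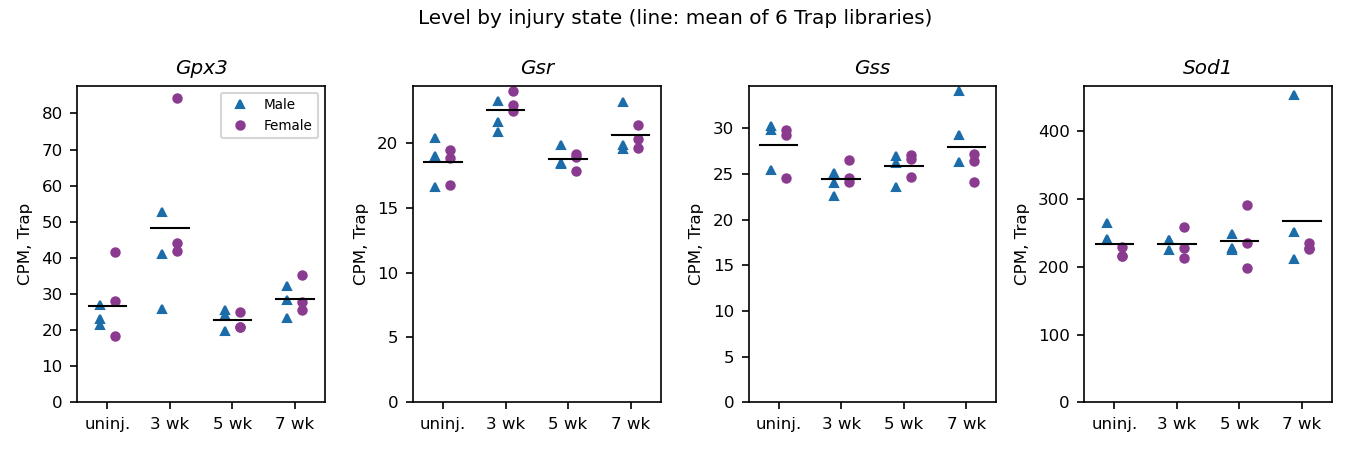
CPM in each Trap library (y axis, from 0) of Gpx3, Gsr, Gss and Sod1 by injury state, males as triangles and females as circles, with lines at the mean of 6. Gpx3 is spread from 25.9 to 84.3 CPM at 3 weeks, Gsr at 3 weeks lies above all uninjured libraries, and male 7 weeks replicate 2 is the high Sod1 point at 454 CPM.

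At 7 weeks 37 of the 46 genes were above uninjured, against 51.9% of all genes, and none was called. Male 7 weeks replicate 2 was the highest 7 week library for Prdx6, Gstm1, Sod1, Txn1 and others, and without it 18 of 46 genes were above uninjured, with a median of log2 -0.02. The 5 genes with the smallest p at 7 weeks were Gsr, Nqo1 and Hmox1, given above, with Gstt1 at 0.18 and Gstt3 at 0.11. At 5 weeks they were Gpx3 and Hmox1 with Gss at -0.12, Gstm1 at -0.08 and Gstp2 at 0.48, the last with means of 0.52 ± 0.24 CPM at 5 weeks and 0.38 ± 0.15 CPM in uninjured mice (SD, n = 6 each).

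Other pathway genes showed no call at any time in Trap. The smallest p at 3 weeks was that of Txnip, which inhibits thioredoxin, at 22.8 ± 4.11 CPM at 3 weeks and 33.6 ± 12.9 CPM in uninjured mice (SD, n = 6 each; log2 -0.49 ± 0.138, edgeR adjusted p = 0.172). By sex, Txnip averaged 22.1 ± 5.79 CPM in male 3 week libraries and 23.9 ± 6.57 CPM in uninjured males, with overlap, and 23.5 ± 2.68 CPM in female 3 week libraries and 43.4 ± 9.54 CPM in uninjured females, without overlap (SD, n = 3 each). The male effect minus the female effect was 0.78 ± 0.277 and was not called (edgeR adjusted p = 1.00). Ncf1, a cytosolic subunit of the phagocyte NADPH oxidase that makes superoxide, had the largest log2 difference among the 5 pathway genes of smallest p, 1.31 ± 0.437 (edgeR adjusted p = 0.298), at 0.85 ± 0.42 CPM at 3 weeks and 0.32 ± 0.14 CPM in uninjured mice (SD, n = 6 each). Its highest 3 week library was female replicate 2 at 1.46 CPM, the highest also for S100a8, S100a9 and Gpx3. Of the superoxide makers listed with Ncf1, Cybb was not higher, at 0.39 ± 0.20 CPM at 3 weeks and 0.42 ± 0.27 CPM in uninjured mice. Cyba had 7.43 ± 2.35 and 6.53 ± 1.26 CPM (SD, n = 6 each), and the source of these transcripts was not tested. Sqstm1, an autophagy receptor that binds KEAP1, was at -0.18 and Sesn1, a sestrin, at -0.26 at 3 weeks. Chac1 differed from uninjured by log2 -0.68, -0.72 and -0.75 at 3, 5 and 7 weeks, with means under 1 CPM after fracture, and was not called. Sephs2, which makes the selenium donor for selenoproteins, was at -0.21 at both 5 and 7 weeks, and the main row of Nnt at -0.24 and -0.28. Aifm2, a ubiquinone reductase, and Pdia4, a disulfide isomerase, were both at -0.14 at 5 weeks. Ephx1, the microsomal epoxide hydrolase, had 114 ± 16.7 CPM at 7 weeks and 92.3 ± 5.51 CPM in uninjured mice (SD, n = 6 each; 0.30 ± 0.0982, edgeR adjusted p = 1.00), and Mafg was at -0.13.

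Whole-tissue RNA gave the same comparison with 2 libraries per state. No member of 47 was called at 3 weeks (1.08% of 16803 genes were), 5 weeks (0.107%) or 7 weeks (0.214%) in edgeR. At an unadjusted p under 0.05 there were 3, 1 and 0 genes (6.38%, 2.13% and 0%), against 13.9%, 8.49% and 5.87% of all genes. DESeq2 called 0 of the 47 at each time. Gstm1 was nearest at 3 weeks, at 0.19 ± 0.0598 (edgeR adjusted p = 0.154). Among the other pathway genes, Selenop, the secreted carrier of selenium, was lower at 3 weeks, at 386 and 390 CPM in the female and male library, against 516 and 422 CPM in uninjured ones (log2 -0.28 ± 0.0592, edgeR adjusted p = 0.0282). Glrx5, a mitochondrial glutaredoxin of iron-sulfur cluster assembly, was higher at 5 weeks, at 73.8 and 96.1 CPM in the female and male library, against 53.8 and 58.8 CPM in uninjured ones (0.58 ± 0.0715, edgeR adjusted p = 0.00155), and at 7 weeks by 0.49 ± 0.0722 (adjusted p = 0.00356). With 3 residual degrees of freedom these rest on few libraries.

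Males and females were compared over 12 Trap libraries each. None of the 46 genes was called in edgeR (0.195% of all genes were). At an unadjusted p under 0.05 there were 7 (15.2%, against 9.79% of all genes), and DESeq2 called 1, Gstt3. Its 12 male libraries had 99.9 to 134 CPM and its 12 female libraries 81.4 to 106 CPM, overlapping, with means of 112 ± 9.12 CPM in males and 98.3 ± 8.12 CPM in females (SD). The log2 difference of 0.19 ± 0.0461 missed the threshold in edgeR (adjusted p = 0.106) and passed it in DESeq2 (adjusted p = 0.0184). In Input, the male library was also above the female one in each of the 4 states. From uninjured to 7 weeks Gstt3 had 9.81, 11.1, 11.5 and 10.4 CPM in males and 7.83, 8.22, 9.83 and 9.29 CPM in females. That order was not particular to Gstt3. Sod3, Gpx1, Gpx3, Gsr and Gss had it in every state too, while Sod2 and Gclc did not. The whole gene set took 0.322% to 0.355% of the counts in male Input libraries and 0.287% to 0.302% in female ones. In Trap, Sod3 and Sod2 were at 0.19 and 0.15, and Gpx1 and Gclc at -0.18 and -0.12, none called. Averaged over the states, Gpx1 lay lower in males in Trap, and it lay higher in males in Input. Its male and female Trap means were 51.3 and 53.2 CPM in uninjured mice and 46.3 and 54.4 CPM at 3 weeks. They were 44.5 and 61.2 CPM at 5 weeks and, in the other direction, 50.2 and 48.6 CPM at 7 weeks (n = 3 each). The other genes of a panel of 18 followed in each comparison lay between log2 -0.08 and 0.14. Of the other pathway genes Txnip had the smallest p, at 25.9 ± 5.14 CPM in males and 33.4 ± 9.22 CPM in females (SD, n = 12 each; -0.34 ± 0.0969, edgeR adjusted p = 0.213). Slc7a11 had 58.2 ± 11.5 CPM in males and 72.7 ± 12.4 CPM in females (SD, n = 12 each, log2 -0.31 ± 0.0997, edgeR adjusted p = 0.273). Its male and female means were 57.2 and 84.7 CPM in uninjured mice and 59.6 and 58.6 CPM at 3 weeks. They were 60.3 and 68.1 CPM at 5 weeks and 55.6 and 79.3 CPM at 7 weeks (n = 3 each). Male 7 weeks replicate 2 was at 34.4 CPM, the lowest 7 week library. Aifm2, Cyba (a membrane subunit of NADPH oxidases) and Abcg2 (an efflux transporter) were at 0.16, -0.34 and -0.15, and none of these genes was called. Differences of the oligodendrocyte markers were negative in males for 8 of 8 genes (median -0.16, none called), with sums of 2264 to 5161 CPM in males and 2331 to 5554 CPM in females, and their part was not tested.

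The 3 week effect was also compared between the sexes directly. None of the 46 genes was called (0% of all genes were), 0 had an unadjusted p under 0.05 (2.59% of all genes did), and DESeq2 called 0. For Gpx3 the male effect minus the female effect was -0.21 ± 0.399 and for Gsr -0.11 ± 0.146 on the log2 scale, with intervals of -1.04 to 0.62 and -0.42 to 0.19.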

How the data were processed

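Poly-A RNA of 24 Trap and 8 Input libraries was sequenced. Per the submitters' processing notes, FastQC, Trim Galore, STAR, RSEM and GRCm38 were used; versions and strandedness are not given in the sources used here. The authors deposited RSEM estimated counts per gene, 6.21% to 8.53% of them not whole in a library, and they were rounded here. RSEM divides reads among similar genes, so near copies are uncertain.

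Tests used edgeR 4.0.16 in R 4.3.3 (filterByExpr, TMM, glmQLFit, glmQLFTest, 2-sided), with Benjamini-Hochberg adjustment across every gene tested; an adjusted p under 0.05 is a call. Trap against Input used 32 libraries with sex and injury state as terms (15913 genes), comparisons within Trap 1 fit of 24 libraries with a mean per sex and state (15380 genes, 16 residual degrees of freedom), and Input 8 libraries with sex as a term (16803 genes, 3 residual degrees of freedom). CPM is TMM-scaled over all 32 libraries. The standard error of a log2 difference was derived from the test, as its absolute value divided by the square root of the quasi-likelihood F statistic. The steps were also run on simulated counts drawn independently for each library, with no library set apart, and the outcome is not used as support here.

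Named in full for Trap against Input were up to 10 called genes each way by size and a panel of 18; elsewhere called genes, the 5 smallest p-values and the panel. Other pathway genes followed the same rule, with those of each role added here after their values were seen. The 56 genes, lists and rules were chosen with earlier results of these data known. Alternatives were DESeq2 1.42.0 and its size factors, no count filter, only the groups compared, replicate blocks, and leaving out libraries; the block within each sex was added after seeing the data. No pair of replicates within a group agreed within sampling noise. Intervals from counts cover counting error only.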

Additional observations from a re-analysis of the deposited data

Results flagged for a closer look

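Of 225 combinations of a gene (29 members and 16 others) and a group of 6 Trap or 8 Input libraries, 27 held a library set apart from the rest by Dixon's criterion, where chance gives about 1 in 20. Male 7 weeks replicate 2 accounts for 11 of them among members, each time as the highest 7 week Trap library: Prdx6 at 2301 CPM (the next at 1838), Gstm1 at 1998 (1475), Gsta4 at 507 (324), Sod1 at 454.0 (250.8), Gpx4 at 433 (331), Sod2 at 312 (245), Mgst1 at 168 (139), Txn1 at 102 (62.6), Gstk1 at 100.4 (73.3), Mgst3 at 33.3 (22.4) and Gpx8 at 21.3 (14.3).

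Female 5 weeks replicate 3 was the highest 5 week library for Gpx4 at 435 CPM (the next at 314), Gsta4 at 354 (310.3) and Mgst1 at 158 (135). Female 3 weeks replicate 3 was the highest at 3 weeks for Gpx4 at 380.4 CPM (332) and the lowest for Nfe2l2 at 63.4 (77.9). Male 3 weeks replicate 1 was the lowest for Mgst1 at 121 CPM (138), and male 5 weeks replicate 3 the lowest for Keap1 at 54.5 (59.7). In Input, the male 3 week library was the highest for Gstm1 at 181 CPM (155) and for Gpx3 at 23.3 (19.0), and the female 5 week library for Nqo1 at 7.03 (6.35).

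Among the 16 other genes, female 3 weeks replicate 2 was the highest 3 week library for S100a8 at 11.6 CPM (the next at 2.90) and S100a9 at 10.5 (2.36). Female 3 weeks replicate 1 was the highest for Sephs2 at 29.5 CPM (26.2) and female 5 weeks replicate 2 the highest at 5 weeks for Abcg2 at 22.5 (18.8). At 7 weeks male replicate 2 was the lowest for Slc7a11 at 34.4 CPM (65.0) and male replicate 1 the lowest for Cyba at 4.63 (7.44).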

How the results depend on the processing

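The count of 41 genes called in Trap against Input ran from 40 to 43 under every alternative and stayed at 41 in each of 32 fits that left out 1 library. It was also 41 with a replicate block of 8 pairs of Trap replicate 1 and Input. The correlations within these pairs were all positive, from 0.0016 (male 7 weeks) to 0.17 (female uninjured), and the main fit does not pair them. For Trap at 3 weeks against uninjured the count of 0 became 2 with DESeq2 (Gpx3 and Gsr), 1 with the replicate block (Gpx3, log2 0.84, adjusted p = 0.0193 in edgeR), 1 with the replicate block within each sex (Gpx3, 0.85, 0.0323) and 0 to 1 over 12 fits that left out 1 library; for males against females it became 1 with DESeq2 (Gstt3). Most column names carry the replicate number with a sex letter, shared across states, and what it marks is not given. Same-numbered Trap libraries deviated together with correlations of -0.04 to 0.15 at 3 weeks, 1 of 6 over 0.1. The main fits leave the numbers out. These correlations, from groups of 3 libraries, do not settle whether same-numbered libraries were prepared together. Counts for 5 and 7 weeks, the sex difference of the 3 week effect, and Input stayed at 0 under all alternatives run. Over all genes the 17 calls at 3 weeks became 130 with DESeq2, 44 with the replicate block, 77 with the replicate block within each sex, 34 with no count filter and 106 without both libraries that stood apart, and ran from 3 (without male uninjured replicate 2) to 47 (without female 3 week replicate 3) with 1 library left out. No gene value reversed a call. Estimated counts limit what can be said of Gstm and Gstp copies, and genes near 1 CPM such as Gsta3 and Gstp2 had intervals wider than 1 log2 unit within Trap.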

Other observations

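The tested genes among the 56 that encode selenoproteins (Gpx1, Gpx3, Gpx4, Txnrd1 and Txnrd2, which carry selenocysteine at the active site) differed from Input by log2 0.03 to 0.79, with a median of 0.52. The other 41 tested genes had a median of 1.48, and 27 of them lay above the highest selenoprotein. This grouping was made after the values were seen, leaves out selenoproteins that are not among the 56 genes, and carries no test. Selenop, the secreted selenium carrier, is a selenoprotein outside the 56 genes. It stood at 1761 ± 135 CPM in Trap and 425 ± 43.6 CPM in Input (SD, n = 24 and 8), a wider gap than that of any grouped selenoprotein gene. Of 8 genes of selenoprotein synthesis and transport, 6 were called higher in Trap (44.4% of all genes were), with Sephs2 (-0.18) and Pstk (-0.77) lower.

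Nnt, the mitochondrial transhydrogenase that makes NADPH, appears as a pair of overlapping gene rows on chromosome 13, at 119335448 to 119408997 and 119335528 to 119408952 (GRCm38), both on the minus strand. The second row had counts in only some libraries, and at 5 weeks in Input it held 6.35 and 3.42 CPM against 0 in the other Input libraries, which edgeR called higher (adjusted p = 3.4e-05). The sum of both rows in Input was 15.8 and 15.3 CPM at 5 weeks and 15.2 and 18.6 CPM in uninjured libraries.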
